A study of Homo sapiens with 37 samples.

Results

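The 10 KO libraries with the highest SLC2A1 were described among 26 KO and 11 control libraries of K562, a human erythroleukemia cell line that carries BCR-ABL1 and makes fetal and embryonic globins. In the KO cells ZBTB7A had been disrupted with Cas9 and 1 of 2 gRNAs, the controls had received the vector without a gRNA, and single GFP+ cells of both kinds had been sorted and expanded. The labels name a genotype for each library but neither clone, gRNA nor replicate number, and libraries are numbered here in order of deposit within each genotype. No age, time or further treatment distinguishes the groups. RNA was measured by bulk SCRB-seq, in which each captured transcript is counted once by its unique molecular identifier (UMI) near its 3′ end. The libraries were chosen by their own values: after the KO library with the lowest NOTCH3 level was left out (3.17 CPM, which is UMIs scaled to a common library total), the 10 with the highest SLC2A1 CPM were kept and compared with the other 15. The member just inside this choice was KO replicate 20 at 9.13 log2 CPM of SLC2A1, and the library just outside it was KO replicate 9 at 8.66. Because the choice used these measurements, differences between the 10 and the 15 are given as a description with no p-value.

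SLC2A1 encodes GLUT1, which carries glucose across the plasma membrane and is also abundant in the membrane of human red cells. During erythroid maturation, cells raise the enzymes of heme synthesis, the globins and a specialised membrane that holds the anion exchanger band 3, the Rh proteins, the glycophorins and a spectrin skeleton. ZBTB7A is a zinc finger transcription factor that represses fetal globin genes in adult erythroid cells and, in other tissues, genes of glycolysis.

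Several genes of the red cell were higher in the 10 libraries than in the other KO libraries. SLC4A1 (band 3) stood 9.75-fold higher, ALAS2, the erythroid enzyme that starts heme synthesis, 3.98-fold, and the Rh protein gene RHCE 4.40-fold, while the embryonic globin gene HBZ was higher by 1.42 on the log2 scale. For HBZ the controls overlapped the 10. Of 29 erythroid genes compared with the other KO libraries, 25 had the higher and 4 the lower mean (4971 and 5043 of all 10014 genes). HBD, LMO2, RHAG and LDB1 were lower in the 10. Lists of glycolytic and hypoxia response genes had medians near 0 in the same comparison. ENO2, which encodes the neuronal form of enolase, was 2.93-fold higher in the 10, with overlapping ranges. The widest lower differences among genes without overlap and averaging 10 CPM or more were in ZDHHC2, CNN3, RNF125, NEK6 and AREG. The 10 libraries came in 2 sets whose profiles correlated only weakly with each other, and values are therefore given for each set.

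The start regions of SLC2A1 and ALAS2 are shown because both genes were higher in all 10 libraries, and because SLC2A1-DT, a noncoding transcript that starts on the opposite strand beside SLC2A1, was higher as well. Each sequence is the stretch of 250 bases before the RefSeq start site on GRCh38.p14, written 5′ to 3′ along the gene. For ALAS2 (chrX:55030978-55031227, minus strand) capitals mark the only match to the GATA factor motifs AGATAA and TGATAA, here read on the opposite strand, from 127 to 122 bases before the start. For SLC2A1 (chr1:42958869-42959118, minus strand) capitals mark the 70 bases that GENCODE annotates, on the plus strand, as the beginning of SLC2A1-DT, which starts 181 bases from the SLC2A1 start.
ALAS2: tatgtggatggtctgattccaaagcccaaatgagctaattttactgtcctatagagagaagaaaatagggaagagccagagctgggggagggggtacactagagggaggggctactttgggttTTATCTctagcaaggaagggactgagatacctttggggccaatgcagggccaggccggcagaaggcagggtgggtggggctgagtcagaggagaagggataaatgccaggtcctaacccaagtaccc
SLC2A1: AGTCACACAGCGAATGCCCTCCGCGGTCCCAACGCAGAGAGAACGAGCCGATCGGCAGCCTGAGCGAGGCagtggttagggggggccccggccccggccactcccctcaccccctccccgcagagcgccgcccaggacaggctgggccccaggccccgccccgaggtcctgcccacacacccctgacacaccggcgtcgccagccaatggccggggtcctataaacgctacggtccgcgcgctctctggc
The SLC2A1 stretch is 72.4% G or C and the ALAS2 stretch 52.8%. A match to AGATAA or TGATAA on either strand lies in 14.6% of the 35116 RefSeq stretches of the same length. The SLC2A1 stretch holds none of these motifs, nor the hypoxia-inducible factor core ACGTG (18.5% of all stretches, either strand), nor CCACACCC, a form of the motif that KLF1 binds (2.97%). Of the 12 leading higher genes named below, 8 had an entry, with 17 start sites, and 6 of these held a GATA motif, in ALAS2, NFASC, RHCE and RHD. Of the 12 leading lower genes 8 had an entry, with 21 start sites, and 4 held the motif, in CNN3 and MEF2C. B3GALT1-AS1, HBA2, PLCD1, SLC4A1, ANGPT1, GIHCG, TMEM65 and ZDHHC2 had none in the table.

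Total UMIs ranged from 1070250 to 2164774 in the 10 libraries (median 1551888), from 1348241 to 4270901 in the other 15 (median 2613643) and from 563235 to 4710809 in the controls. The 10 were the shallower group by 0.775 on the log2 scale (two-sided permutation test over libraries, p = 4e-04, adjusted over 2 technical tests p = 8e-04). The test treats every library as independent, although the libraries fall into the few sets described next. The total also divides the CPM by which the libraries were chosen, so nothing is read from this p-value. Barcodes rich in G or C were in 4 of the 10 and 7 of the 15 libraries (odds ratio 0.762, two-sided Fisher's exact test, p = 1). Within the 10, barcode class moved with the sets described next: the set of 6 held 5 AT-rich and 1 GC-rich barcode, and the set of 4 held 3 GC-rich and no AT-rich ones. Its part in differences between the sets was not tested. Of 12 K562-defining genes 11 were in the table and none was at 0, with a summed level of 7051 to 10060 CPM in the 10, 3454 to 7068 in the other 15 and 4235 to 8855 in the controls. Of 12 lymphoid markers 11 were in the table and 3 were at 0 in all 10 libraries, with a summed level of 9.79 to 93.8 CPM against 31.4 to 173 in the other 15, and the member with the highest mean was PTPRC in both. The keratin genes KRT8 and KRT18 made up most of a stromal and epithelial list that summed to 813 to 994 CPM in the 10 and 363 to 879 in the 15, with 4 of its 13 measured members at 0 in the 10. The part of these markers in the results was not tested.

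The 10 libraries fell into 2 sets when all 37 were grouped by the correlation of their 1000 most variable genes. KO replicates 4, 5, 10, 22, 24 and 25 formed a set of 6 with Pearson's r from 0.824 to 0.872 within it, and KO replicates 8, 11, 12 and 20 a set of 4 with r from 0.729 to 0.813. Between the sets r was only 0.11 to 0.192, so the profile of the 4 was no closer to that of the 6 than to some libraries outside the 10, as its r with a set of 5 other KO libraries was 0.17 to 0.299. The other 15 made up 3 such sets, of 6, 5 and 4 libraries. These r values share the genes that made the sets and describe the libraries only. Libraries of a set may be repeats of 1 clone, which the labels do not tell, so that a comparison of 10 with 15 libraries rests on 2 sets against 3. The 11 controls fell into 2 sets. Tests of KO against control below treat all libraries as independent, and their KO arm includes the 10. Their SEs and p-values may therefore overstate the evidence. The left-out library, although labelled KO, fell into 1 of the 2 control sets. Its r was 0.293 to 0.832 to the controls and −0.336 to −0.083 to the other 15. With it kept among the others, 71 higher and 39 lower genes met the criterion given below instead of 83 and 51.

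**Figure D1:**
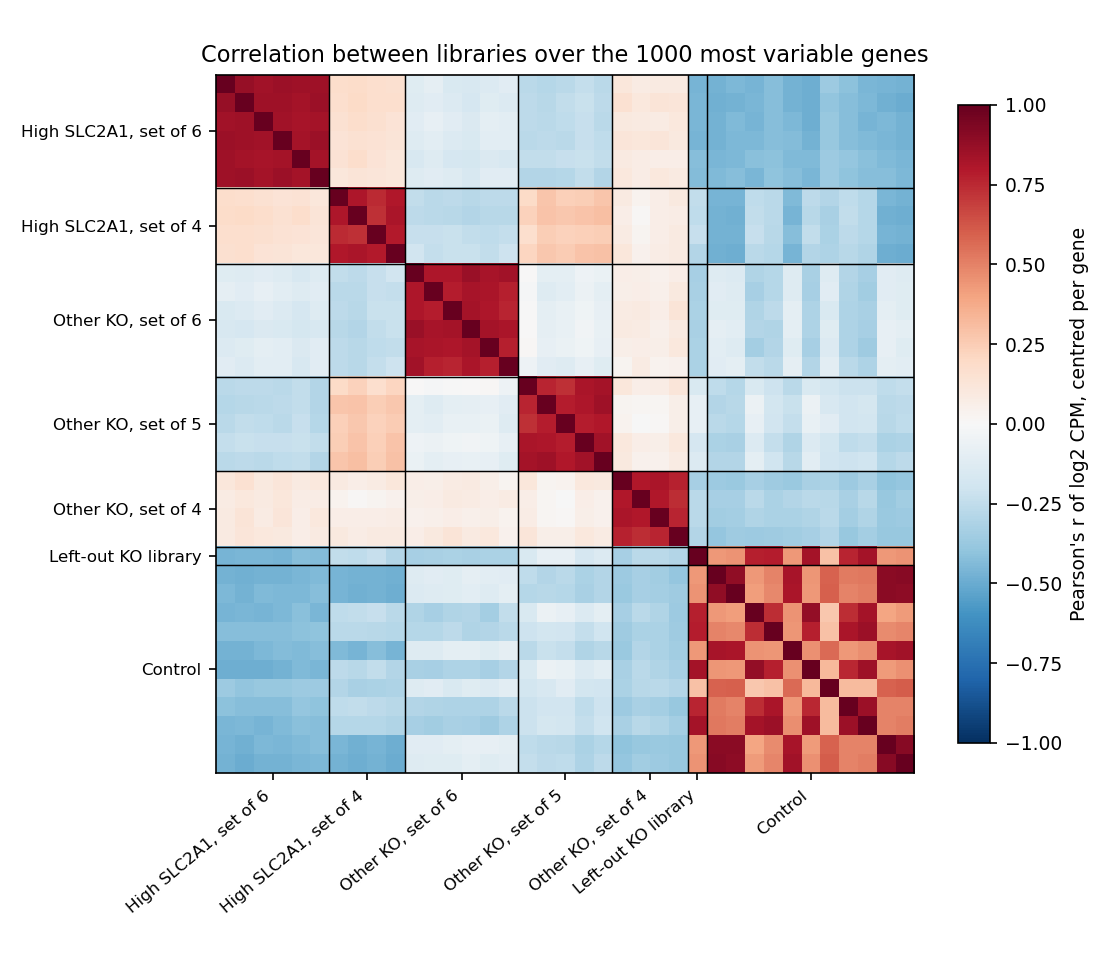
Pearson's r between all 37 libraries over the 1000 most variable genes (log2 CPM centred per gene), libraries on both axes ordered by set, with black lines between sets. The high SLC2A1 libraries appear as separate red blocks of 6 and 4, with r of 0.11 to 0.192 between them, and the left-out KO library is red against the controls.

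ZBTB7A, the disrupted gene, was measured from its 3′ end, which the edit does not remove, so its level does not check the labels. It was at 5.76 ± 0.27 log2 CPM (SD, n = 10) in the 10 libraries, 6.04 ± 0.21 (n = 15) in the other KO libraries and 5.81 ± 0.29 (n = 11) in the controls, and the ranges overlapped. The lower mean of the 10 came from the set of 6. Against the other 15, ZBTB7A differed by −0.459 in the set of 6 and by 0.003 in the set of 4. Between all KO and control libraries it differed by 0.12 ± 0.09 (SE) on the log2 scale (edgeR quasi-likelihood test, adjusted p = 0.331). NOTCH3, the receptor gene by which 1 KO library was left out, was at 4.25 ± 0.38 log2 CPM in the 10, close to the 4.35 ± 0.20 of the other 15 and above all 11 controls at 1.47 ± 0.44. The left-out library lay within the control range, so that leaving it out set the gap between KO and control.

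SLC2A1 (chr1:42925353-42958893) was the gene that chose the libraries. In CPM it was at 635, 616, 595, 593, 589 and 587 in KO replicates 25, 22, 5, 4, 24 and 10, the set of 6. It was at 617, 616, 605 and 561 in KO replicates 8, 12, 11 and 20, the set of 4. After TMM scaling both sets lay within 9.12 to 9.29 log2 CPM, against 8.22 to 8.61 in the other 15 and 7.57 to 7.92 in the controls. The gap between the 10 and the 15 was set by the choice, and the left-out library, at 218 CPM, lay within the range of the controls. The mean of the 10 was 1.72-fold that of the other 15, from 659 to 1221 UMIs per library. Over all libraries SLC2A1 rose in KO against control by 1.03 ± 0.14 (SE) on the log2 scale (edgeR, adjusted p = 5.37e-07). Without the 10 libraries, which were chosen for high SLC2A1, the rise was 0.67.

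SLC2A1-DT (chr1:42959049-42996814), the divergent noncoding transcript, followed the order of SLC2A1. It was at a lowest, median and highest of 4.33, 4.93 and 5.15 log2 CPM in the set of 6 and at 3.67, 3.76, 3.81 and 4.35 in the set of 4, against 2.26, 2.83 and 3.46 in the other 15 and 0.95, 2.22 and 2.96 in the controls. All 10 libraries stood above all others, on 13 to 61 UMIs each, and the set of 6 was the higher one although SLC2A1 itself hardly differed between the sets. The annotated bodies of both genes do not overlap. In KO against control libraries SLC2A1-DT rose by 1.68 ± 0.36 (edgeR, adjusted p = 4.15e-04).

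ENO2, the second marker of these libraries, was at 5.28 to 5.34 log2 CPM in all members of the set of 6 and at 4.51, 4.53, 4.54 and 5.12 in the set of 4. The other 15 KO libraries ran from 2.37 to 4.76 with a median of 3.42, and 7 of the 10 lay above the highest of them. The controls ran from 1.83 to 3.73 with a median of 2.10. The mean of the 10 was 2.93-fold that of the 15, so the label by SLC2A1 and ENO2 held for the set of 6 in every library, while 3 libraries of the set of 4 overlapped the top of the set of 5 other KO libraries. ENO2 rose in KO against control by 2.28 ± 0.37 (edgeR, adjusted p = 1.00e-05).

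**Figure D2:**
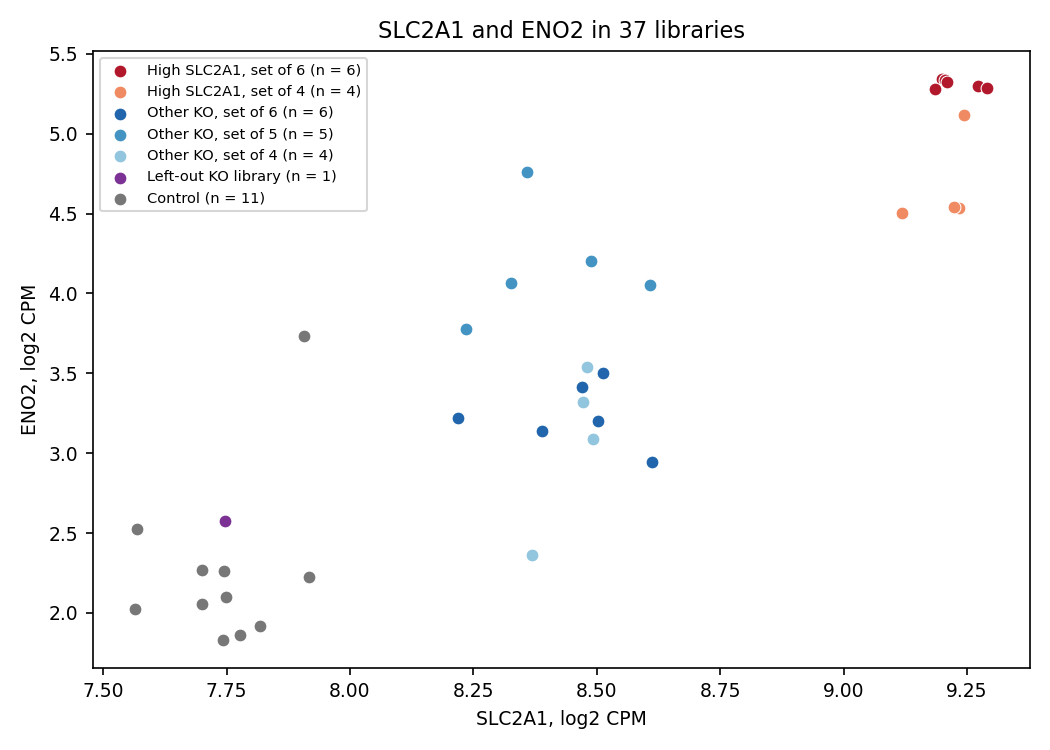
ENO2 against SLC2A1 in log2 CPM for 37 libraries, 1 point each, coloured by set. The 10 high SLC2A1 libraries lie at 9.12 to 9.29 on the horizontal axis, apart from the other KO libraries at 8.22 to 8.61, and the set of 6 is packed at 5.28 to 5.34 on the vertical axis.

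Among the 10014 genes whose mean reached 5 CPM, 83 were higher in the 10 libraries with no overlap with the 15 and a difference above 0.5 (0.829% of genes), and 51 were lower (0.509%). These shares come from the contrast that the rule used and nothing is read from them. Against the controls, 367 genes were higher in all 10 libraries by the same criterion (3.66%) and 244 lower (2.44%), while the other 15 KO libraries had 123 higher (1.23%) and 73 lower (0.729%). Between the 2 sets within the 10, which were made from the same expression values, 438 genes were higher in the 6 (4.37%) and 671 higher in the 4 (6.7%), in a comparison of fewer libraries, where no overlap is met more easily. In the labelled contrast of all KO with all control libraries, edgeR called 709 of 10661 genes higher (6.65%) and 376 lower (3.53%). The 10 were part of its KO arm. Its p-values for genes named by their rank in the 10, such as SLC2A1-DT, SLC4A1, ALAS2, NFASC and TSPO, are no separate support for those differences.

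Of 35 erythroid genes 29 were compared, and 25 of these had the higher mean in the 10, with a median difference of 0.45 against 0.00 over all genes compared. Among all 10014 genes compared, 4971 had the higher mean in the 10. The ranges did not overlap and the difference passed 0.5 for 8, all in the higher direction, among them SLC4A1, HBA2, ALAS2, HBZ, HBA1, TAL1 and BLVRB. Over all genes compared the share was 0.829% higher and 0.509% lower. The same 29 genes were, at the median, 0.20 lower in the other KO libraries than in controls and 0.30 higher in the 10 than in controls. In the labelled contrast 5 of the 29 rose (ALAS2, SLC4A1, EPOR, CA2 and LMO2) and 2 fell (NFE2 and SPTB), against 6.65% and 3.53% of all genes tested. In bulk libraries, a larger share of cells in an erythroid state and more RNA per cell cannot be told apart.

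SLC4A1 had the widest difference of any gene named by rank. In the set of 6 it was at 4.54, 5.15 and 5.23 log2 CPM (lowest, median, highest) and in the set of 4 at 4.29, 5.23, 5.26 and 5.66, while the other 15 libraries were at 0.88, 1.80 and 2.78 and the controls at −0.37, 1.47 and 3.35. In molecules this was 35 to 78 UMIs in each of the 10, 3 to 25 in the 15 and 0 to 22 in the controls. All 10 libraries thus lay above every other library of the series, and both sets did so to a like degree, at 3.24 and 3.36 above the 15. The size of the difference between the 10 and the 15 depended on the processing. It was 3.29 as used, 3.56 with a prior count of 0.5, 2.89 with one of 5 and 2.33 after thinning to the smallest total. Over all libraries SLC4A1 rose in KO by 2.07 ± 0.66 (edgeR, adjusted p = 0.0146), although the other 15 KO libraries alone differed from the controls by 0.16 in their means.

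ALAS2 was at 8.02, 8.25 and 8.32 log2 CPM in the set of 6, at 7.26, 7.39, 7.54 and 7.55 in the set of 4, and at 5.45, 5.92 and 6.28 in the other 15. The controls spread over 4.35, 4.89 and 6.54, so that the other KO libraries lay within the control range and the 10 above it. UMIs ran from 166 to 620 per library in the 10. ALAS2 rose by 1.41 ± 0.39 in KO against control (edgeR, adjusted p = 0.00577), with the 10 in the KO arm, so this is no separate support. Further along the pathway, PPOX and FECH, which carry out the closing steps of heme synthesis, were higher in the 10 without overlap, by 0.76 and 0.78. ALAS1, the housekeeping form of the first enzyme, differed by 0.09 and ALAD by 0.07. Of 18 heme and iron genes compared 16 had the higher mean in the 10, with a median of 0.15, against 4971 of all 10014 genes with the higher mean. Among genes of iron traffic, TFRC, the transferrin receptor, differed by 0.02 and the iron exporter SLC40A1 by 0.01.

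Among the globins, HBZ was at 9.48, 9.75 and 9.81 log2 CPM in the set of 6 and at 9.44, 9.50, 9.92 and 10.02 in the set of 4, above the other 15 libraries at 7.75, 8.21 and 8.99. Controls overlapped the 10, with 7.58, 8.61 and 9.89, and only 2 of the 10 exceeded the highest of them. HBA2 was likewise 2.85 higher than in the 15, from 34 to 137 UMIs against 10 to 37, yet no library of the 10 exceeded the highest control at 6.21. The other KO libraries were 1.90 below the controls for HBA2 and 0.33 below for HBZ. HBA1, which is nearly identical to HBA2, was higher by 1.13, and how reads were divided between these copies is uncertain. The fetal genes HBG2 and HBG1, also near-identical copies, were higher in the 10 by 0.98 and 0.77 with overlapping ranges, while HBD, a minor adult globin, was lower by 0.62. Neither HBZ (adjusted p = 0.611) nor HBA2 (adjusted p = 0.411) was called between all KO and control libraries by edgeR.

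The membrane and its skeleton differed gene by gene. RHCE was at 7.27, 7.36 and 7.50 log2 CPM in the set of 6 and 6.10, 6.11, 6.18 and 6.25 in the set of 4, against 3.97, 4.52 and 5.87 in the 15 and 3.51, 4.22 and 5.35 in controls. RHD, its near-identical neighbour on chromosome 1, was higher by 1.77, and reads could be shared between the 2 genes. RHAG, which partners the Rh proteins in the membrane, was lower by 0.25. SPTB (beta-spectrin) was higher by 0.73 with overlap and ANK1 (ankyrin) by 0.27. The glycophorin genes GYPB, GYPC and GYPE differed by 0.74, 0.48 and 0.37, each with overlap, and GYPB and GYPE are close copies of each other.

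Of the transcription factors of red cell development, TAL1 was the one without overlap. It was at 6.81, 6.93 and 7.05 log2 CPM in the set of 6 and at 6.63, 6.73, 6.73 and 6.74 in the set of 4, above the 15 libraries at 5.75, 6.06 and 6.20 and the controls at 5.81, 5.94 and 6.25. GATA1 differed by 0.26, GFI1B by 0.28, NFE2 by 0.18 and KLF1 by 0.12, while the TAL1 partners LMO2 and LDB1 were lower by 0.35 and 0.20. CA2, the carbonic anhydrase of red cells, separated the sets: it was at 5.36 to 5.61 in the 4 and at 1.11 to 2.82 in the 6, against 0.78 to 4.77 in the other 15.

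**Figure D3:**
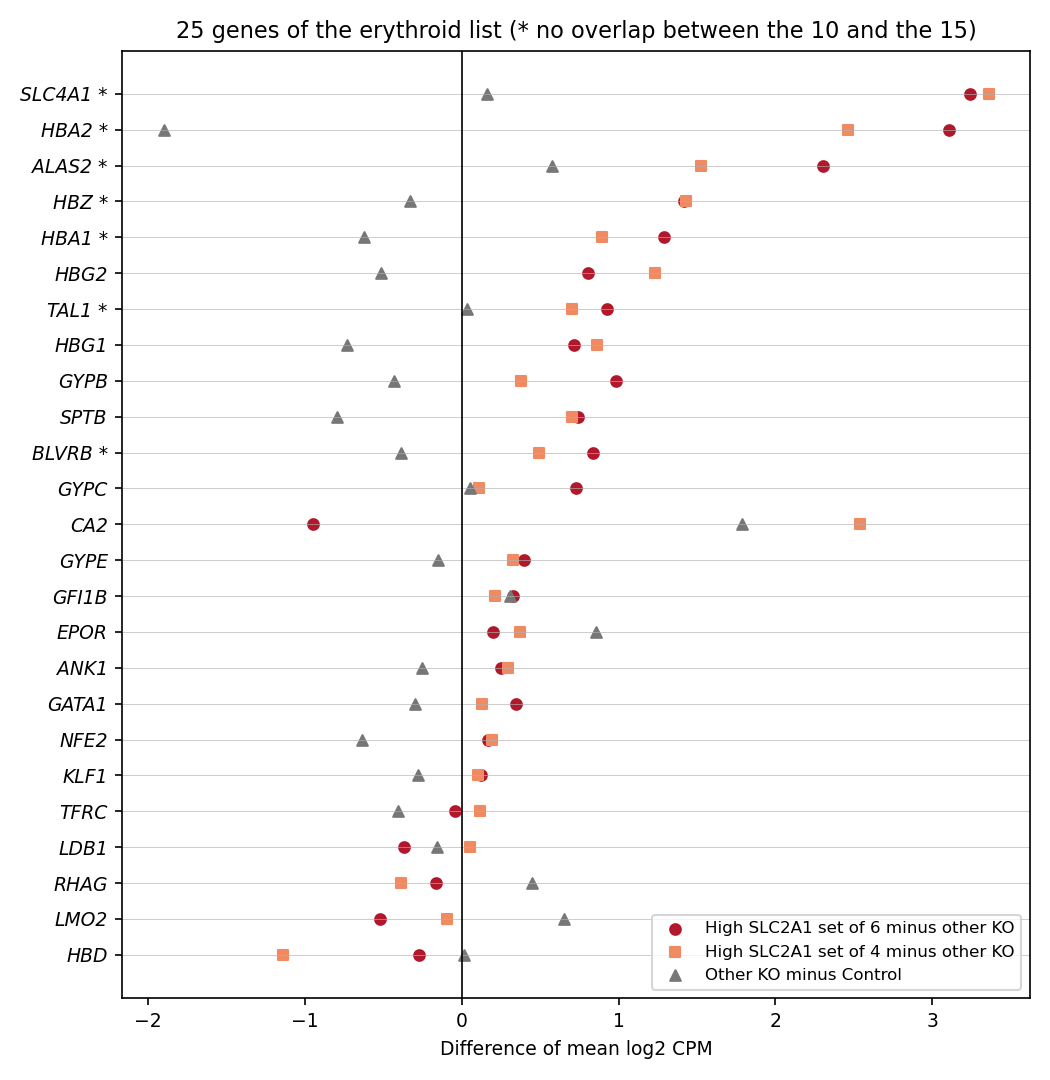
Difference of mean log2 CPM for 25 of the 29 erythroid genes compared, with circles for the set of 6 and squares for the set of 4 against the 15 other KO libraries, and triangles for these 15 against controls. SLC4A1 lies at 3.24 and 3.36 for the sets, and CA2 is the gene on which the sets part, at -0.95 and 2.54.

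Of 5 genes of glucose transport compared, SLC2A1, which chose the libraries, and TXNIP met the criterion, against 0.829% of all genes in the higher direction. TXNIP, an arrestin-like protein that promotes removal of GLUT1 from the membrane, was higher in the 10 without overlap, by 0.90, and its relative ARRDC4 by 0.95 with overlap. MLXIP, a glucose-sensing transcription factor that activates TXNIP, was higher by 0.57 without overlap. SLC2A3, the other main glucose transporter of these cells, was on the contrary lower in the 10, at 7.49 ± 0.24 log2 CPM against 7.82 ± 0.18 in the 15, with overlap. SLC2A3 differed from the 15 by −0.46 in the set of 6 and by −0.12 in the set of 4. It rose in KO against control by 0.86 ± 0.09 (edgeR, adjusted p = 4.84e-09), and its copy SLC2A14 could share its reads. Of 23 glycolytic genes compared, 12 had the higher and 11 the lower mean in the 10, with a median of 0.04. PFKL, a phosphofructokinase subunit, was the only one that passed the criterion, at 0.51. ENO1, the common enolase, was higher by 0.20, the lactate dehydrogenase gene LDHA was lower by 0.45 and PKM by 0.33. Of 20 hypoxia genes none passed, with a median of −0.05, and VEGFA differed by −0.03. NDRG1 stood out among them at 0.88 with overlap. MYC was lower in the 10 by 0.62 and lay below the lowest control in each of them.

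Outside these lists the higher genes named by rank included membrane proteins and enzymes of other tissues. NFASC, the adhesion protein neurofascin, was at 6.20, 6.44 and 6.65 log2 CPM in the set of 6 and at 5.87, 5.94, 6.26 and 6.29 in the set of 4, against 2.41, 4.50 and 5.06 in the 15 and 1.36, 2.05 and 3.18 in controls. It rose in KO against control by 3.22 ± 0.51 (edgeR, adjusted p = 8.44e-06). SLC7A8, an amino acid transporter, was tight within the 10 at 6.52 to 6.95 against 4.32 to 5.72 in the 15. PLCD1, a phospholipase C, was higher by 2.38, the peptidase gene ACE by 1.91 and IGSF1 by 1.58. For PLCD1 the controls overlapped the 10. B3GALT1-AS1, an antisense transcript, was higher than in the 15 by 1.70 but below the lowest control in 9 of the 10 libraries, so its level in the 10 was between that of the other KO libraries and that of the controls. GP1BA, the platelet receptor for von Willebrand factor, came from the megakaryocytic list. It was higher by 2.34, at 4.94 to 5.44 in the 6 and 3.77 to 4.37 in the 4, against 1.58 to 2.88 in the 15 and at most 1.55 in the controls. It was the only one of 5 megakaryocytic genes compared without overlap, and THBS1 and CD9 differed by 0.38 and 0.19.

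Among the lower genes, TSPO, a protein of the outer mitochondrial membrane, was at 4.84, 5.56 and 5.66 log2 CPM in the set of 6 and at 6.27, 6.32, 6.32 and 6.33 in the set of 4. The other 15 were at 6.75, 7.01 and 7.29 and the controls at 7.34, 7.64 and 8.02, so that the set of 6, the set of 4, the other KO libraries and the controls followed each other upwards without overlap. TSPO fell in KO against control by 0.92 on the log2 scale (edgeR, adjusted p = 1.62e-04). MEF2C, a transcription factor, showed another order: the 10 at 4.56 to 4.98 lay within the control range of 4.71 to 5.28 but for a single library, and the 15 at 5.74 to 6.22 stood above both. CNN3, an actin-binding calponin, was similar in that the set of 6, at 2.56 to 3.73, lay near the controls at 2.77 to 3.92, whereas the set of 4 was at 4.74 to 5.07 and the 15 at 5.38 to 6.91. SOX4, a transcription factor, was at 0.51 to 2.39 in the 6 and 3.56 to 3.95 in the 4 against 4.14 to 5.23 in the 15, from as few as 1 UMI.

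The remaining lower genes by rank were ZDHHC2, a palmitoyltransferase, lower by 2.48, the ubiquitin ligase gene RNF125 by 2.17, the kinase gene NEK6 by 2.16, and AREG, which encodes an EGF receptor ligand, by 2.06. TMEM65, PPM1H, ANGPT1 and the noncoding GIHCG were lower by 2.01, 1.87, 1.34 and 1.28. Counts in the 10 were low for some of them, with 0 to 11 UMIs for ZDHHC2 and 2 to 8 for PPM1H, whose differences carry a large counting error, while ANGPT1 had 19 to 96. The mean of the set of 6 was further below the 15 than that of the set of 4 in each of the 12 lower genes but MEF2C, at −1.18 for the 6 and −1.23 for the 4.

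**Figure D4:**
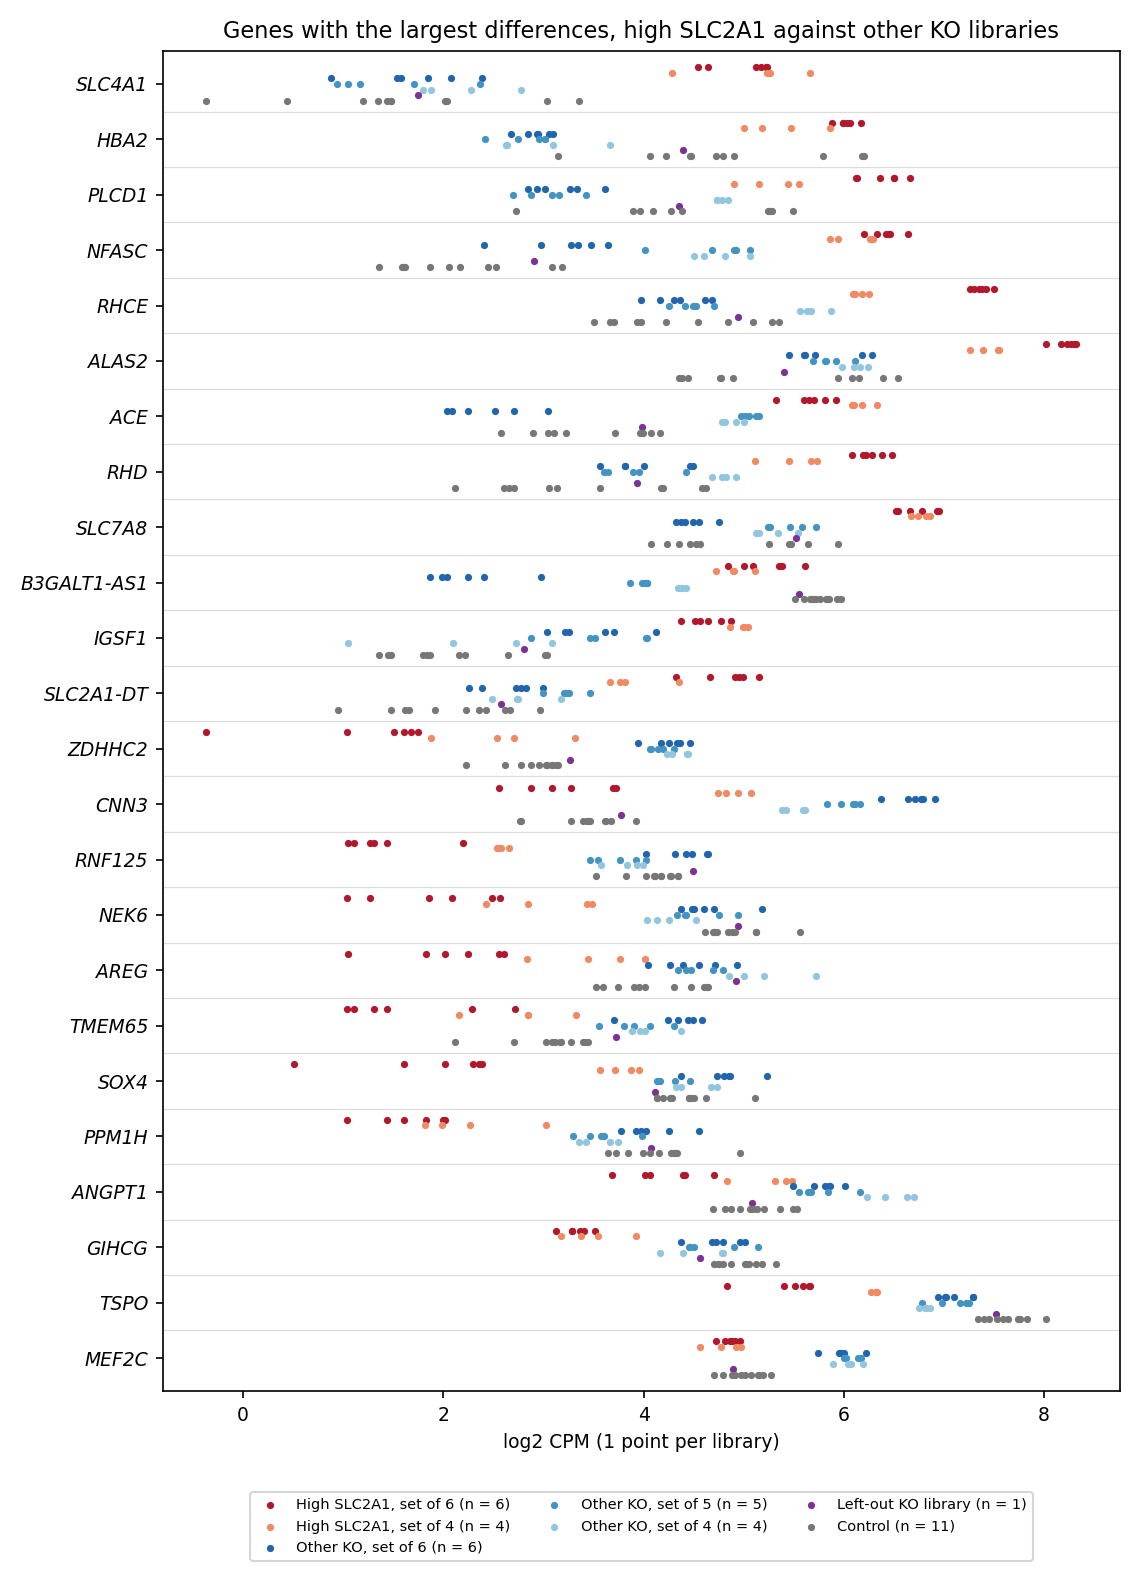
Log2 CPM of the 12 genes with the largest higher and the 12 with the largest lower differences between the 10 and the 15, among genes without overlap that averaged 10 CPM or more, 1 point per library and 1 row of points per set. Red and orange points (the 10) do not overlap blue points (the other 15), and SLC4A1 at the top spans 4.29 to 5.66 against 0.88 to 2.78.

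Both the higher and the lower genes were unevenly placed in the genome. Chromosome 1, which carries SLC2A1, SLC2A1-DT, RHCE, RHD, TAL1, PPOX and NFASC, held 24 of the 83 higher genes (28.9%) and 1047 of the 10014 genes compared. Chromosome X, which carries ALAS2 and IGSF1, held 10 of the higher genes and 342 of those compared. The 15 themselves varied over parts of these chromosomes, in the median over genes of single libraries against their mean. It ran from −0.24 to 0.16 on chromosome 1 between 20 and 40 Mb. The set of 6 was at 0.17 to 0.22 there and the set of 4 at 0.10 to 0.15. On chromosome X between 120 and 140 Mb the 15 ran from −0.32 to 0.18. There the set of 6 was at 0.05 to 0.13 and the set of 4 at 0.08 to 0.18. Between 40 and 60 Mb of chromosome X, where ALAS2 lies, all 10 libraries were above the 15. The set of 6 was at 0.186 to 0.291, the set of 4 at 0.113 to 0.208 and the 15 at −0.098 to 0.112. The part of these stretches in the higher genes was not tested. Chromosomes 4 and 8 held 17 of the 51 lower genes (33.3%) and 2 of the 83 higher genes, but 6.90% of all genes compared. Across the 357 genes of chromosome 4, each library of the set of 6 had a median of −0.51 to −0.45 against the mean of the 15, where single libraries of the 15 ran from −0.04 to 0.07. Across the 334 genes of chromosome 8 it was −0.49 to −0.45. In the set of 6, 90.5% of the genes of chromosome 4 and 90.1% of those of chromosome 8 had the lower mean. The set of 4 was at −0.06 and −0.04 on these chromosomes. ZDHHC2, TMEM65 and ANGPT1 lie on chromosome 8 and AREG on chromosome 4, and these were lower in the set of 4 also, by 1.64, 1.32, 0.71 and 1.18. MYC, CA2 and HEY1 lie on chromosome 8 as well, and MYC was lower by 0.79 in the 6 and by 0.38 in the 4. The set of 4 had its own stretches: 37 genes of chromosome 10 between 120 and 140 Mb were at a median of −0.82, and on chromosome 14 the medians were 0.45 between 80 and 100 Mb (37 genes) and 0.49 beyond 100 Mb (40 genes). In the set of 6, the 304 genes of the first 20 Mb of chromosome 19 were at −0.24. UROS, a heme synthesis gene in that part of chromosome 10, was at 4.43 to 4.72 in the 4 and 6.01 to 6.25 in the 6. With chromosomes 4 and 8 left out, 81 higher and 34 lower genes remained.

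**Figure D5:**
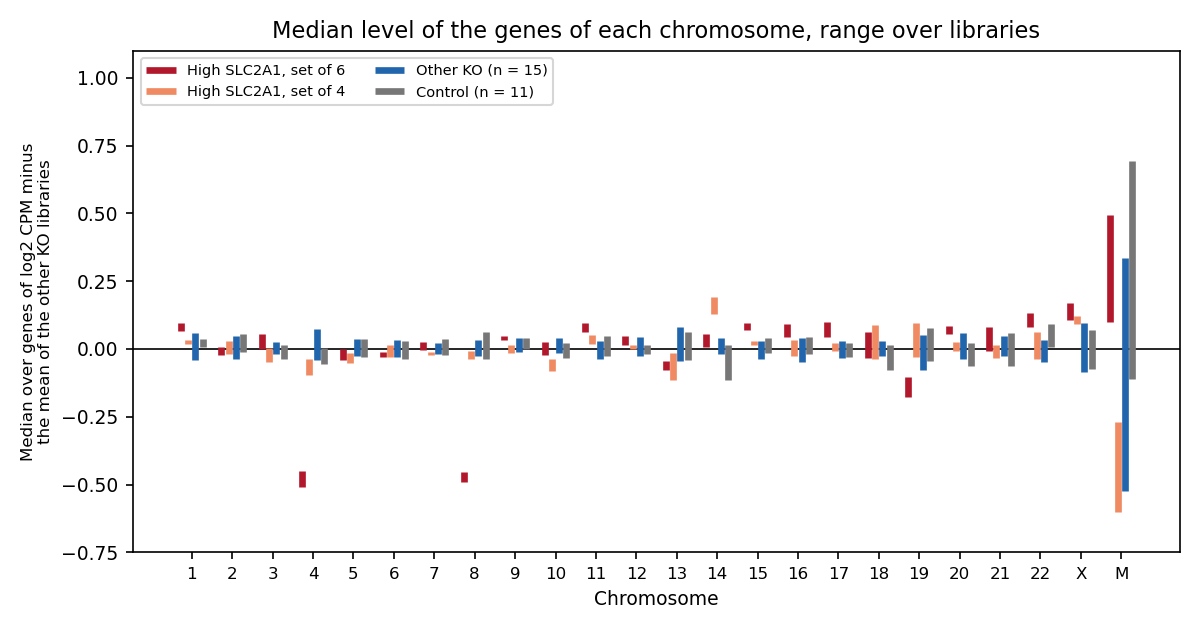
For each chromosome, the range over libraries of the median over its genes of log2 CPM minus the mean of the other 15 KO libraries, with bars for the set of 6, the set of 4, the other KO libraries and the controls. The set of 6 is at −0.51 to −0.45 on chromosome 4 and at −0.49 to −0.45 on chromosome 8, apart from all other libraries.

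The sets also differed within the lists where the 10 as a whole were near the 15. Of 10 Notch pathway genes compared none passed the criterion, with a median of −0.21, but HEY1, a target of Notch receptors, was at 2.02 to 2.55 log2 CPM in the 6 and 4.80 to 5.30 in the 4, while the 15 ran from 3.30 to 5.07. NOTCH1 was at 3.55 to 4.84 in the 6 and 5.36 to 5.82 in the 4. Genes of the ATF4 response, which follows amino acid shortage, had a median of −0.20 in the 6 and 0.56 in the 4, and PSAT1, a serine synthesis enzyme, was lower in the 6 by 1.05 and higher in the 4 by 0.29. Mitochondrially encoded genes had medians of 0.22 in the 6 and −0.48 in the 4, while libraries of the 15 alone ran from −0.52 to 0.33. Cell cycle lists were flat in comparison, with medians of 0.07 over 19 S phase genes and −0.05 over 14 G2/M genes. LIN28A, an RNA-binding protein of embryonic cells, was above all controls in each of the 10 and higher than in the 15 by 0.91, with overlap.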

How the data were processed

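Bulk SCRB-seq libraries of K562, 26 labelled KO and 11 labelled control, were analysed. The authors aligned reads to hg38 with STAR (2.6.0a per the submitters' processing notes), assigned UMIs to Ensembl GRCh38.84 genes with zUMIs, and deposited raw UMI counts for 32055 genes. Symbols and positions came from GENCODE 44, which matched 31323 identifiers. Log2 CPM used TMM factors and a prior count of 2 (edgeR 4.0.16, R 4.3.3), and 10014 genes averaging 5 CPM or more were compared. A gene was counted when the groups did not overlap and their means differed by over 0.5. Libraries were grouped by average linkage at 1 − r of 0.5. KO and control libraries were compared by edgeR's quasi-likelihood test at an adjusted p of 0.05 and a log2 fold change of 0.5, also with limma 3.58.1 and DESeq2 1.42.0. Procedures were tested on simulated data. The libraries, gene lists and tests were chosen with earlier results of these data known. Genes were named from 21 lists and as the 12 largest differences each way among genes without overlap and averaging 10 CPM or more. Some listed genes are not reported here. No source states that the libraries of a group came from separate cultures, so p-values measure the spread between libraries, which may be technical. By expression the 26 KO libraries fell into 6 sets and the 11 controls into 2. The left-out KO library shared a set with controls, so there were 7 sets in all. The tests treated all libraries as independent. Their SEs and p-values may therefore overstate the evidence.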

Additional observations from a re-analysis of the deposited data

Results flagged for a closer look

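GIHCG, a noncoding RNA among the lower genes, was highest among the 10 libraries in KO replicate 11, at 3.93 log2 CPM with the nearest of the others at 3.54. This gap was 0.482 of the range of the 10, above the critical value for a sample apart from the rest. Of the 29 genes checked in this way, chance would give such a gap in about 1 of 20. The KO library left out by its low NOTCH3 had SLC2A3 at 7.28 log2 CPM, just over the highest control at 7.27. It was in neither group of KO libraries.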

How the results depend on the processing

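Against 134 genes without overlap (83 higher and 51 lower in the 10), plain totals, RLE factors, other prior counts or minimum levels and keeping the left-out library gave 102 to 143. Leaving out each library in turn gave 131 to 159 genes, 81 to 96 higher and 49 to 64 lower. Thinning all libraries to 563235 UMIs left 49 (32 higher, 17 lower), of which 43 were among the 134. The part of depth in which genes separate was not tested. The 9 highest libraries gave 48 (26 and 22) and the 11 highest 13 (7 and 6), of which 24 and 7 were among the 134. The list thus depended on the exact cut. In both settings 1 library was grouped apart from its own set, and its part in these counts was not tested. AT-rich barcodes alone, which hold 5 of the set of 6 and none of the set of 4, gave 953 (443 and 510), and GC-rich ones, which hold 1 and 3, gave 342 (198 and 144). A difference above 1 left 57 (30 and 27), and any difference gave 86 lower genes. Chosen after seeing the data, the set of 6 alone gave 735 (340 and 395), the set of 4 alone 354 (213 and 141), leaving out the other KO set of 5 gave 291 (183 and 108) and leaving out that of 4 gave 206, with 86 lower; 131 and 116 of the 134 genes were among those of the set of 6 and the set of 4. Of 493 alternative values of 29 named genes, 25 moved by more than 1 SD, in 19 of these genes. Most of the moves came with the set of 4 alone, as for ALAS2 (1.52 against 1.99) and RHCE (1.41 against 2.14). Others came with thinning, as for SLC4A1 (2.33 against 3.29). NOTCH3, at −0.09 with overlap, turned to 0.06 with the left-out library kept, 0.12 with GC-rich barcodes and 0.13 with the set of 4 alone. Of 25 named genes without overlap, 11 were left after thinning, 6 with the 9 highest libraries and 1 with the 11 highest. The odds ratio of barcode class turned to 1.03 with 9 and 1.11 with 11 libraries, with p = 1 by Fisher's exact test in both. KO against control, edgeR called 1085 genes, 1720 without a filter on low counts, 1079 with limma-voom, 1103 with DESeq2, 930 without the 10 libraries and 1044 to 1126 leaving out each library in turn. No paired analysis was possible because the labels give no replicate numbers, and those used here only name libraries.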

Other observations

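In the lists below, the MYC network apart, no gene differed by over 0.5 between the 10 and the 15 without overlap. Over all 10014 genes compared, 4971 had the higher and 5043 the lower mean in the 10. Of 6 interferon response genes compared, 4 had the higher mean in the 10, with a median of 0.37. IFITM3, which blocks virus entry, was higher by 0.99 and BST2, which tethers virus to cells, lower by 0.70, both with overlap. Of 15 genes of cholesterol synthesis 10 had the higher mean, with a median of 0.16. Of 9 BCL2 family genes 6 had the lower mean, with a median of −0.11, led by BCL2L11 (BIM) at −0.38. Of 17 genes of pyruvate entry and the TCA cycle 11 had the higher mean (median 0.05), and of 7 pentose phosphate genes 5 (median 0.08).

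Of 17 genes of the ATF4 response 8 had the higher and 9 the lower mean, with a median of −0.01 over the 10. Of 7 oncofetal genes 4 had the higher mean (median 0.07). All 3 myeloid genes compared had the lower mean (median −0.20), with CEBPD, a myeloid transcription factor, at −1.18 with overlap. In the MYC network 6 of 11 genes had the higher mean, with a median of 0.06, and MLXIP, at 0.57, was the one without overlap.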
